A study of Mus musculus with 8 samples.

Results

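The genes described here encode parts of the outer dense fibres and the fibrous sheath of the sperm tail, and they were taken from the table of gene values by their symbols, Odf1, Odf2, Odf3, Odf4, Akap3, Akap4, Fscb, Ropn1, Ropn1l and Cabyr. They are 10 of the 54532 genes in the table, and each symbol matched 1 row. The genes were selected on values of these data, since the group was chosen by the reads of Odf2, which had more reads than any other gene in both L/Z libraries at PD 52. The levels in those libraries therefore belong to the choice of the genes, and all differences between ages or between stages are given as a description with no test.

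RNA was sequenced from spermatocytes of C57BL/6J mice, purified from testes by sedimentation through a BSA gradient, which separates cells mainly by size. The labels give pachytene (P) and leptotene or zygotene (L/Z) fractions, each from MFN2 WT and MFN2 cKO males at PD 24 and PD 52 (postnatal days). The study's text gives the same days for the sequencing, but in a few places a slightly later day for the older mice. The day of the labels is used here. Both genotypes are Mfn2 loxp/loxp, and only the cKO also carries Stra8-Cre. Mfn2 encodes mitofusin 2, a GTPase of the outer mitochondrial membrane needed for mitochondrial fusion. The floxed segment is exon 6, and the Stra8 promoter drives Cre in male germ cells from early spermatogonia on, while the somatic cells of the testis keep the gene. The study describes its controls as littermates that were fl/fl or fl/+, whereas the labels name loxp/loxp for all WT samples. Each of the 8 groups had 1 library, and the sources do not say how many mice were pooled for it or whether the P and L/Z fractions of one genotype and age came from the same mice.

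The sperm tail is built around a microtubule axoneme. Along the midpiece and principal piece the axoneme is flanked by outer dense fibres, stiff keratin-like rods, and in the principal piece these are enclosed by the fibrous sheath, a cylinder of columns and ribs that anchors protein kinase A and glycolytic enzymes. In the testis most of these proteins are assembled in spermatids, the cells that follow the meiotic divisions, and the transcripts of several of them are known to appear earlier than the protein.

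The libraries held 14340665 to 20379950 reads on genes. FPKM (fragments scaled to gene length and to library size, with a further scaling between libraries by the authors) is the scale of all levels below. The targeted gene, Mfn2, was at 77.1 FPKM in MFN2 WT and 39.6 in MFN2 cKO P spermatocytes at PD 24, and at 82.2 and 34.3 in L/Z spermatocytes. At PD 52 it was at 62.2 and 50.1 in P and at 97.5 and 47.9 in L/Z spermatocytes, so it was lower in the cKO library of each of the 4 pairs, least so in P at PD 52. These values count the whole gene, not the floxed exon alone. The stage labels were borne out by some markers and not by others. Of 8 genes of pachytene cells, Piwil1, Pou5f2 and Mybl1 were higher in each P library than in every L/Z library. Ccna1 was higher in L/Z in all 4 comparisons within a genotype and age, Adam3 in both at PD 52, Spink2 in cKO at both ages, and Ybx2 in cKO at PD 52. Hist1h1t, at 1.45 to 5.88 FPKM, was higher in L/Z in cKO at both ages and lower in WT. Of 10 genes of early meiotic prophase, Dmc1, Rec8, Prdm9 and Mei1 were higher in L/Z than in the P library of the same genotype and age. Sycp2, Sycp3, Hormad1, Spo11 and Meiob were lower, and Sycp1 was higher in cKO and lower in WT at both ages. Genes of spermatids were present in all 8 libraries, and their summed level was higher in L/Z than in the matching P library, as given below. The fractions are therefore called by their labels, P and L/Z.

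The promoter sequences of the genes that moved most alike can be set side by side. The RefSeq promoter table for GRCm38.p6 held windows for 8 of the 10 genes, and only the 250 bases before each listed start were searched. The octamer TGANGTCA, a form of the cAMP response element that transcription factors of the CREB and CREM family bind, was searched on both strands, and it was chosen after these sequences had been seen. It lay in windows of Akap3, Akap4, Fscb and Ropn1, 1 of the 2 windows in the case of Akap4, against 7.49% of all 32851 windows of the same length in the table. It was not in the windows of Odf2, Odf3, Odf4 and Ropn1l. Other motifs were searched in the same way. The X-box half-site GTTGCNAT lay only in the window of Akap3, at -38, against 2.52% of all windows. The TATA box TATAAA lay in no window of these genes, against 12.4% of all windows. The last 120 bases before the listed start of Akap3 (chr6:126852978-126853097, + strand), Akap4 (chrX:7067395-7067514, + strand) and Fscb (chr12:64474899-64475018, - strand) are shown because these genes carry the octamer close to that listed start. Those of Odf4 (chr11:68927082-68927201, - strand) are shown because its level changed least. They read 5′ to 3′ in the direction of transcription, with the octamer in capitals.
Akap3: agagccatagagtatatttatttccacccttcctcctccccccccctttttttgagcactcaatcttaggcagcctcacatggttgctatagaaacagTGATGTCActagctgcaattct
Akap4: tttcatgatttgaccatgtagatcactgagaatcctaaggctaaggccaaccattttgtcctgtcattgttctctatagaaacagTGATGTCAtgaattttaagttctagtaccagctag
Fscb: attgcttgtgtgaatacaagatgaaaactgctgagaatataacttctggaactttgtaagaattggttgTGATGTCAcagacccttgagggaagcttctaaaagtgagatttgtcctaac
Odf4: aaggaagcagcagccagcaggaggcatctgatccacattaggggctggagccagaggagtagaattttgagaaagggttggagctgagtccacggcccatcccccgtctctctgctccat
The octamer began at position -22 of Akap3, -35 of Akap4 and -51 of Fscb, counted from the base before the listed start as -1, with the same letters in all 3 genes. It began at -102 of Ropn1 with TGAGGTCA. The listed starts are those of RefSeq and did not all match the gene ends given below. For Fscb the listed start lay upstream of the gene's end at 64474690. For Ropn1 the window ended at 34651210, inside the gene, which begins at 34649921. In Akap3 and Akap4 the octamer ended a run of 20 identical bases, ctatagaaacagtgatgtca, beginning at -34 in Akap3 and at -47 in Akap4, and of all windows only those of these 2 genes held it. The next longest run shared by any 2 of the genes was 11 bases, between Odf4 and Akap4. Whether any factor binds these letters in these cells was not measured. The windows these stretches were taken from overlapped no annotated exon, whereas the second window of Akap4 overlapped 1.

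The genes lie apart in the genome. In GRCm38 coordinates they are on chromosome 2 (Odf2, 29889221 to 29931746, + strand), 6 (Akap3, 126853098 to 126874308, +), 7 (Odf3, 140847805 to 140851018, +), 11 (Odf4, 68921835 to 68927081, -), 12 (Fscb, 64471330 to 64474690, -), 16 (Ropn1, 34649921 to 34678618, +), 18 (Cabyr, 12741324 to 12755146, +) and X (Akap4, 7067519 to 7078609, +). Ropn1l (31441211 to 31453737, -) and Odf1 (38219203 to 38226735, +) share chromosome 15. Fscb has 1 exon, whereas the longest transcripts of the other genes have 2 to 7. Odf2 is the longest in the table, 9919 bases, because that length counts the exons of 25 annotated transcripts, the longest of which has 4291 bases. Its FPKM is thus divided by a length that no single transcript has, and the transcripts cannot be told apart in gene values. Odf2 shared 0.734% of its 50-base transcript windows with a small RNA gene inside it that was at 0 FPKM, and the other 9 genes shared none with any other gene.

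All 10 genes were above 1 FPKM in all 8 libraries, on 259 to 69221 reads each. Together they took 0.288% of the reads on genes in P cKO at PD 24, the smallest share, and 1.07% in L/Z cKO at PD 52, the largest. All 10 reached their highest FPKM in the L/Z cKO library at PD 52, and 9 had their lowest in P cKO at PD 24. The exception was Odf4, lowest in L/Z WT at PD 24. Because RNA was taken from whole fractions, a lower share of cells that express a gene and less RNA of it per cell cannot be told apart. The plot of FPKM by library shows these values.

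**Figure D1:**
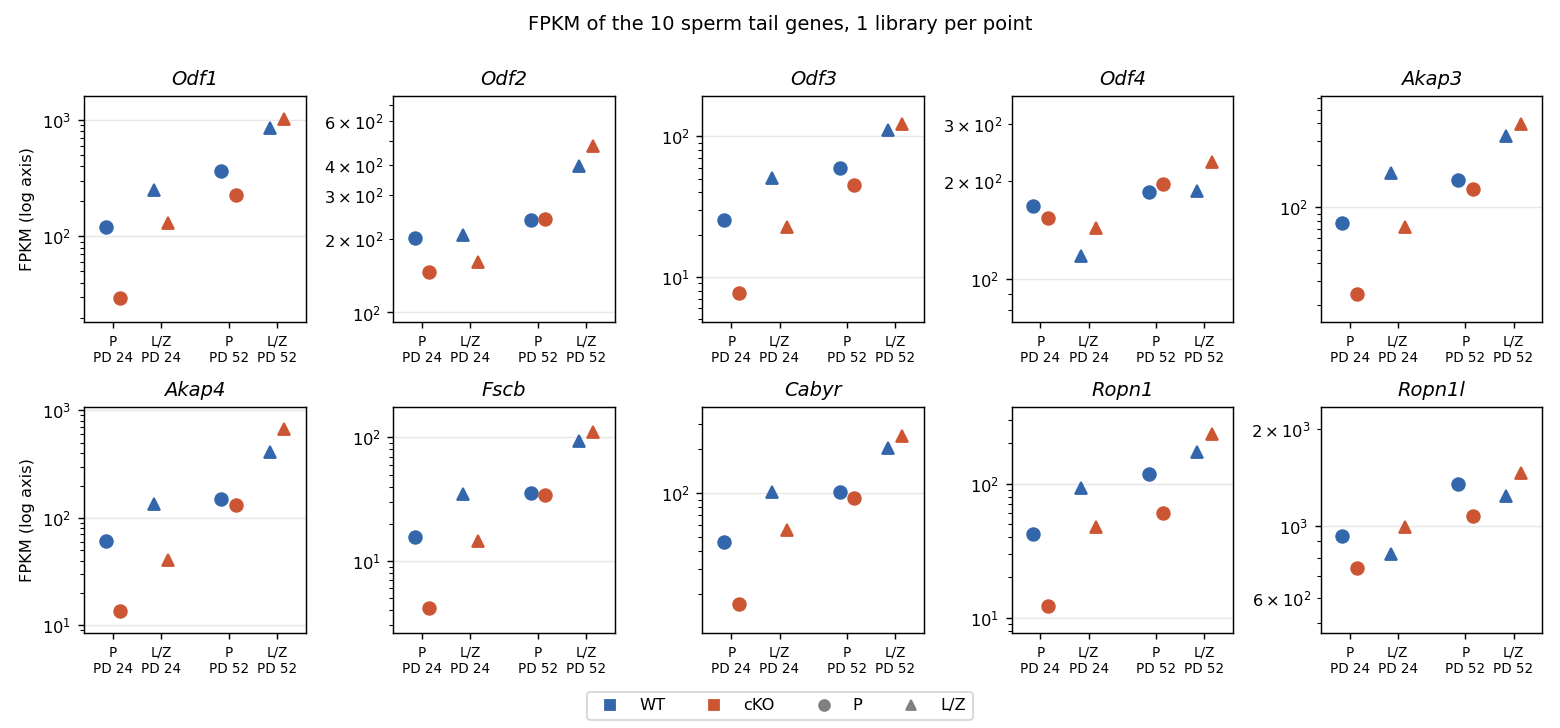
FPKM on a log axis of each of the 10 genes in the 8 libraries, 1 point per library, blue for MFN2 WT and red for MFN2 cKO, circles for P and triangles for L/Z. In 7 genes each red point at PD 24 lies well below the blue point of the same stage, as for Akap4 (13.5 against 61.5 in P), while all 10 red triangles at PD 52 lie above the blue triangles.

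The outer dense fibre genes differed in level and in how far they varied. Odf2 encodes a coiled-coil protein that is a main component of the fibres and has forms at the centrosome of other cells. It was at 201 FPKM in P WT and 146 in P cKO at PD 24, and at 207 in L/Z WT and 161 in L/Z cKO. At PD 52 it was at 238 in P WT, 240.4 in P cKO, 394 in L/Z WT and 477 in L/Z cKO. The L/Z libraries at PD 52 were the highest, and the other 6 lay between 146 and 240.4. By reads Odf2 ranked first in both of them, with 58478 reads in WT against 57315 for Pabpc1, the next gene, and 69221 in cKO against 58402, and in the other libraries it ranked from 6 to 20. It gave 38.6% to 56.3% of the reads of the 10 genes, and its counted length is the longest of them. Per length it was never the highest of them.

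Odf1 encodes the main protein of the fibres, a member of the small heat shock protein family. It was at 120 FPKM in P WT, 29.3 in P cKO, 250.2 in L/Z WT and 129 in L/Z cKO at PD 24, and at 366, 227, 862 and 1015 in the same order at PD 52. Its highest level was 34.7 times its lowest. Odf3, whose product runs along the tail, followed at lower levels, 25.4, 7.63, 51.0 and 22.6 FPKM at PD 24 and 59.2, 44.9, 112 and 122 at PD 52. In both genes the P cKO library at PD 24 was the lowest by far and both L/Z libraries at PD 52 were above all others. Odf4, a membrane protein of the tail, varied least of the 10 genes, from 118 to 229 FPKM. It was at 168 in P WT, 153 in P cKO, 118 in L/Z WT and 144 in L/Z cKO at PD 24, and at 184, 196, 186 and 229 at PD 52.

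Of the sheath genes, Akap4 and Akap3 encode the A-kinase anchoring proteins that make up most of the fibrous sheath, and Akap4 lies on the X chromosome. Akap4 was at 61.5 FPKM in P WT, 13.5 in P cKO, 134 in L/Z WT and 40.4 in L/Z cKO at PD 24, and at 148, 132, 408 and 675 at PD 52. It varied most of the 10 genes, 50.2-fold between the lowest and the highest library. Akap3 was at 77.5, 24.2, 176 and 72.8 FPKM at PD 24 and at 156, 135, 323 and 393 at PD 52. In both genes the cKO libraries at PD 24 were the lowest 2, though Akap3 in L/Z cKO was close to P WT.

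Cabyr encodes a calcium-binding sheath protein that is phosphorylated in capacitation, and Fscb a sheath protein that binds CABYR. Cabyr was at 45.9, 17.2, 101 and 55.6 FPKM in P WT, P cKO, L/Z WT and L/Z cKO at PD 24 and at 101, 92.1, 204 and 245 at PD 52. Fscb was the lowest of the 10 genes in every library, at 15.7, 4.14, 34.8 and 14.5 FPKM at PD 24 and at 35.4, 34.0, 94.0 and 111 at PD 52. The libraries had the same order in both genes, except that L/Z cKO at PD 24 lay above P WT in Cabyr and below it in Fscb.

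Ropn1 and Ropn1l encode ropporin and ropporin-like protein, small proteins with a domain like that of the regulatory subunit of protein kinase A, through which they bind AKAP3. Ropn1 was at 42.2, 12.2, 93.0 and 47.2 FPKM at PD 24, in the same order, and at 118, 60.1, 173 and 234 at PD 52. Ropn1l was the highest of the 10 genes in every library and ranked between 8 and 11 among all genes by FPKM. It was at 933 FPKM in P WT, 745 in P cKO, 819 in L/Z WT and 996 in L/Z cKO at PD 24, and at 1351, 1078, 1246 and 1469 at PD 52. It varied only 1.97-fold, so these genes with related products had unlike patterns.

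A set of 7 genes, Odf1, Odf3, Akap3, Akap4, Fscb, Cabyr and Ropn1, had nearly the same pattern over the libraries. Pearson's r of log2(FPKM + 1) over the 8 libraries was 0.969 to 0.996 for their 21 pairs. Between these 7 genes and the other 3, Odf2, Odf4 and Ropn1l, r was 0.456 to 0.954, lowest for Odf4 with Ropn1 and highest for Odf2 with Akap4. This grouping was made after the values were seen. The 8 points share stage, age and genotype differences, so r describes these libraries and was not tested.

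**Figure D2:**
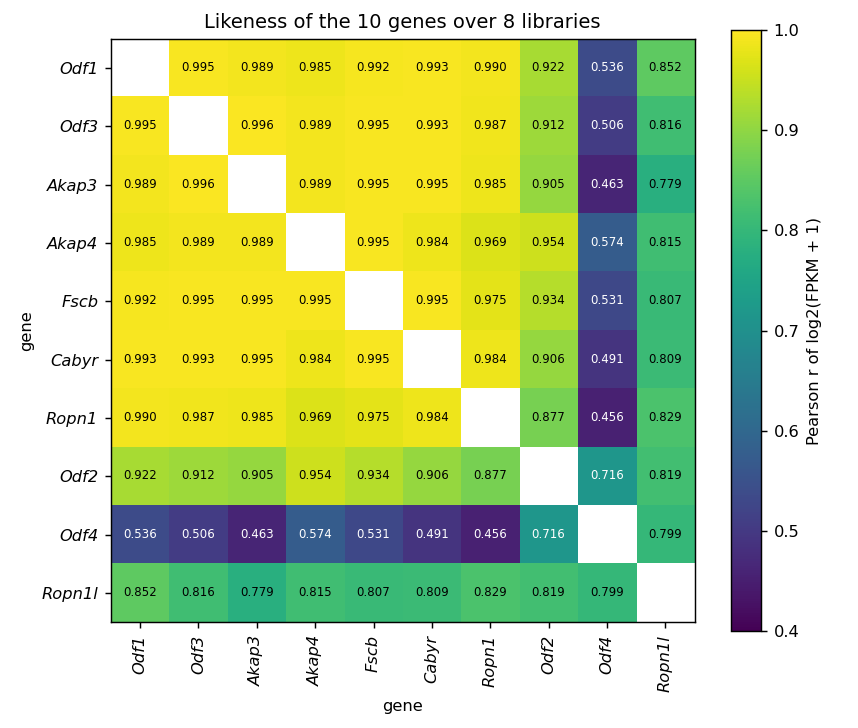
Pearson r of log2(FPKM + 1) between each 2 of the 10 genes over the 8 libraries, from 0.4 (dark) to 1 (light). The block of 7 genes at the upper left holds values of 0.969 to 0.996, and the row of Odf4 holds the lowest, down to 0.456.

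Many other genes shared this pattern. Of 5057 other protein-coding genes with a mean of at least 10 FPKM, 15.4% had r of at least 0.9 with Odf2, 18.4% with Akap4 and 18.8% with Odf1. The genes most like Odf2 were Cep85l, Dyrk1b, March10, Cfap206 and Mak, with r of 0.993 to 0.996. Those most like Akap4 were Fam71f1, Gpd2, Cep295nl, Pmis2 and Galntl5, with r of 0.998 to 0.999. Those most like Odf1 were 1700009N14Rik, Gsg1, Smcp, Ppm1j and Spata21, with r of 0.997 to 0.999, and of these Smcp encodes a protein of the mitochondrial sheath of the sperm midpiece.

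The first comparison asks how the genes differ between MFN2 cKO and MFN2 WT spermatocytes of one stage and age. With 1 library a group it has no replicate check, and a gene is counted when log2(FPKM + 1) differs by at least 2-fold. In P spermatocytes at PD 24 all 10 genes were lower in the cKO library, and 7 of 10 were at least 2-fold lower, where 6.29% of the 16749 genes compared were. Their median difference was -1.62 on the log2(FPKM + 1) scale, beside -0.10 for all genes. The 7 were the genes with the common pattern, and the cKO level was 21.9% of WT for Akap4 (95% counting interval 20.2 to 23.7), 24.5% for Odf1 (22.4 to 26.7) and 37.5% for Cabyr (34.3 to 40.9). The other 3 genes were closer to WT. Odf2 was at 72.8% (71.6 to 73.9), Ropn1l at 79.8% (78.0 to 81.6) and Odf4 at 91.3% (87.2 to 95.7). These intervals come from the exact binomial distribution of the reads and cover counting error only. No gene was at least 2-fold higher, where 1.79% of all genes were. When the libraries were scaled by their total reads instead, Odf4 lay slightly above 0, at 0.04 on the log2 scale, and the other 9 stayed below.

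In L/Z spermatocytes at PD 24 the same 7 genes were lower in the cKO library, though less far. At least 2-fold lower were 4 of 10 genes, Akap4, Akap3, Fscb and Odf3, where 7.03% of the 17664 genes compared were. Akap4 was at 30.2% of WT (28.8 to 31.7), Akap3 at 41.3% (39.8 to 42.8), Fscb at 41.6% (38.4 to 45.0) and Odf3 at 44.3% (40.8 to 48.1). Ropn1, Odf1 and Cabyr lay just short of 2-fold, at 50.8%, 51.6% and 55.0%. Odf2 was at 78.0% (76.8 to 79.2). Odf4 and Ropn1l were higher in the cKO library, at 122% (116 to 129) and 121% of WT (119 to 124). None was at least 2-fold higher, beside 3.45% of all genes, and the median of the 10 was -0.96 beside 0.08 for all genes.

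At PD 52 no gene passed 2-fold in either stage. In P spermatocytes the background was 5.78% of 17444 genes lower and 5.21% higher, and the median of the 10 genes was -0.19 beside -0.05. Ropn1 and Odf1 were furthest from WT, at 50.8% (47.3 to 54.4) and 62.2% (59.7 to 64.8), while Odf2 was at 101% (99.5 to 103) and Fscb at 96.2% (90.04 to 103), whose intervals include no difference. Under a further scaling by median-of-ratios Fscb lay above 0 and not below it. In the L/Z pair all 10 genes were higher in the cKO library, under each of the 3 scalings, with a median of 0.27 beside 0.02 for all genes. The background there was 3.12% of 17860 genes at least 2-fold lower and 4.83% higher. Akap4 was furthest from WT, at 166% (163 to 169), followed by Ropn1 at 136% (130 to 142), and the other 8 lay between 109% and 123%.

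**Figure D3:**
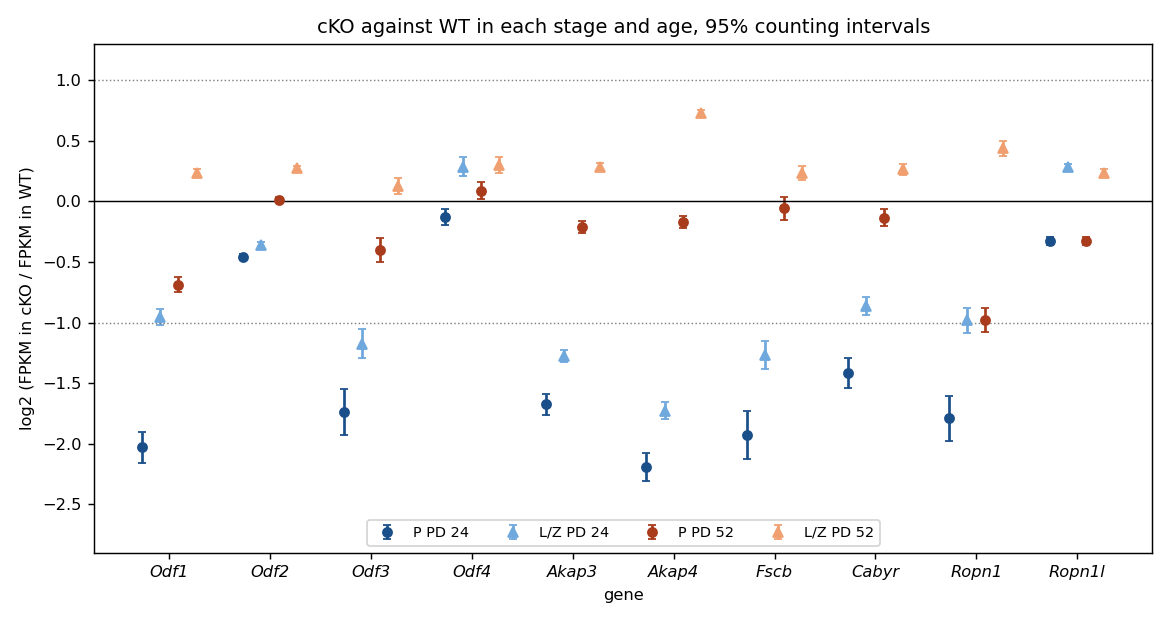
log2 ratio of FPKM in MFN2 cKO over MFN2 WT for each gene in the 4 stage and age pairs, with 95% counting intervals from the reads, and dotted lines at 2-fold. Blue marks PD 24 and red PD 52, circles P and triangles L/Z. At PD 24, 7 genes lie near or beyond the lower dotted line, from Cabyr in L/Z (55.0% of WT) to Akap4 in P (21.9%), and all 10 lie above 0 in L/Z at PD 52.

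Over the 4 pairs together, limma on log2(FPKM + 1) with the pair as a block tested whether a gene differed between genotypes by more than its differences varied from pair to pair. The estimate of Odf2 is given with no test, because its levels in L/Z at PD 52 entered the choice of the genes. None of the other genes passed an adjusted p of 0.05. Of the 21175 genes tested, 0.00472% were called lower in cKO and 0.132% higher. At an unadjusted p under 0.05, Odf1, Odf3 and Ropn1 were lower, 3 of the genes other than Odf2, where 2.79% of all genes were. Odf1 differed by -0.85 (95% interval -1.65 to -0.04, adjusted p 0.697 in limma), Ropn1 by -0.80 (-1.59 to -0.01, adjusted p 0.710) and Odf3 by -0.75 (-1.46 to -0.05, adjusted p 0.681). Akap4 differed by -0.81, with a wider interval (-1.92 to 0.29), since its pairs ran from -2.11 to 0.73. Odf4 (0.14, -0.23 to 0.50) and Ropn1l (-0.03, -0.45 to 0.39) had intervals on both sides of 0, and Odf2 differed by -0.13. The number at an unadjusted p under 0.05 rested on single pairs, with 7 genes lower when the L/Z PD 52 pair was left out, beside 6.05% of all genes in that fit, and 0 when any of the other 3 pairs was, beside 1.27% to 4.05%.

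The study sampled 2 ages, and the genotype difference of the genes was compared between them. A genotype by age term in limma gave the change at PD 52 minus the change at PD 24. Odf2 had a term of 0.55, given with no test because its levels at PD 52 entered the choice of the genes. None of the other 9 genes passed an adjusted p of 0.05, where 0.0142% of 21175 genes were called higher at PD 52 and 0% lower. At an unadjusted p under 0.05, 6 of 9 were higher, Akap4, Fscb, Akap3, Odf3, Cabyr and Odf1, where 7.66% of all genes were. Akap4 had the largest term, 2.18 (1.18 to 3.19) with an adjusted p of 0.134 in limma. Fscb followed with 1.55 (0.76 to 2.33, adjusted p 0.157), Akap3 with 1.49 (0.64 to 2.34, adjusted p 0.186), Odf1 and Odf3 with 1.25 and 1.24, and Cabyr with 1.17. Ropn1 had 1.07 (-0.25 to 2.39), Odf4 0.12 (-0.69 to 0.92) and Ropn1l -0.02 (SE 0.40). With the fit limited to protein-coding genes, the term of Akap4 passed with an adjusted p of 0.0468 in limma. In that fit 174 of 14059 genes were called higher and 30 lower. With each pair left out in turn the term of Akap4 did not pass. The number of genes at an unadjusted p under 0.05 was 3 without the L/Z PD 52 pair, beside 10.5% of all genes higher in that fit, and 2 without the P PD 24 pair, beside 3.97%. It was 6 without the L/Z PD 24 pair, beside 3.52%, and 6 without the P PD 52 pair, beside 9.22%.

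**Figure D4:**
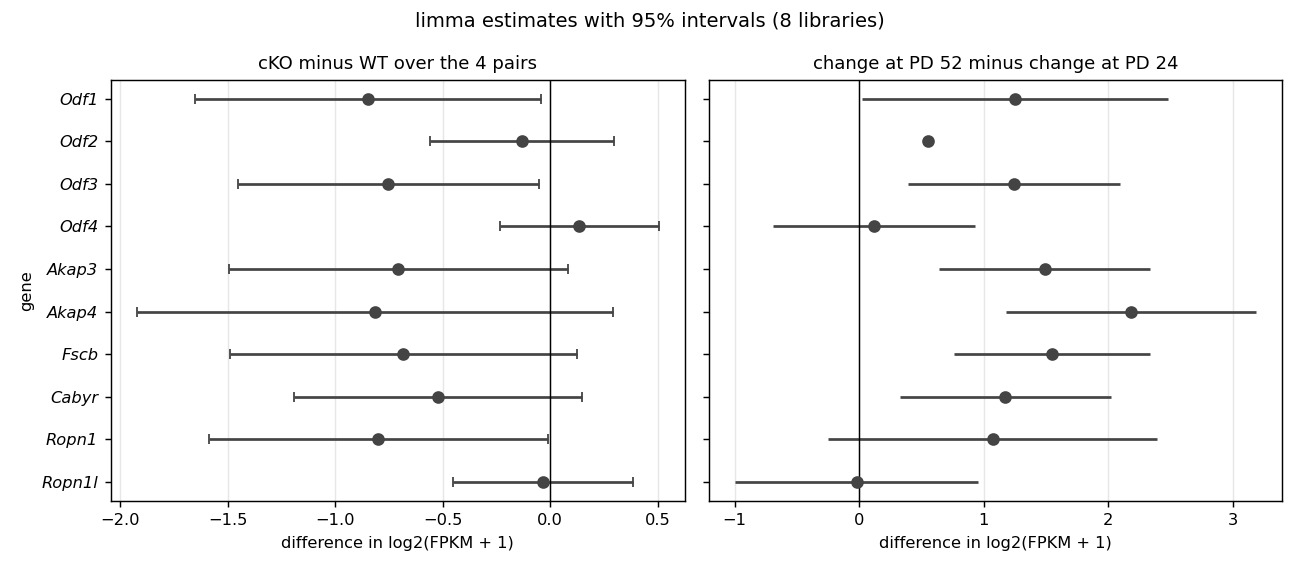
limma estimates for the 10 genes with 95% intervals, as differences in log2(FPKM + 1) over 8 libraries, on the left for MFN2 cKO minus MFN2 WT and on the right for the change at PD 52 minus the change at PD 24. Odf2 has no interval on the right, and its interval on the left is not read as a test. On the left 3 intervals lie wholly below 0, and on the right 6 lie wholly above 0, furthest for Akap4 at 2.18.

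Between ages, described with no test since the genes were chosen at PD 52, all 10 genes were higher at PD 52 in each stage and genotype. The ratio was larger in cKO than in WT for every gene but Ropn1l, in both stages, though for Odf4 in L/Z it was 1.58 in WT and 1.59 in cKO, which counting error does not separate. In P WT 7 of 10 genes were at least 2-fold higher, beside 9.43% of all genes, and in P cKO the same 7, beside 13.6%. In L/Z WT 5 were, beside 7.94%, and in L/Z cKO 8, beside 18.8%. The cKO and WT comparisons within a stage use separate libraries. The level of Akap4 at PD 52 was 2.42 times that at PD 24 in P WT and 9.79 times in P cKO, and 3.05 and 16.7 times in L/Z WT and L/Z cKO. For Odf2 these ratios were 1.18, 1.64, 1.91 and 2.96, and for Ropn1l 1.45, 1.45, 1.52 and 1.48, so that Ropn1l was higher by about the same factor in both genotypes. Scaling by total reads lowered the age difference of L/Z libraries by 0.29 in WT and 0.39 in cKO on the log2 scale, after which 3 genes were at least 2-fold higher in L/Z WT.

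Between stages, again as a description, the 7 genes of the common pattern were higher in L/Z than in P in each genotype and age. At least 2-fold higher in L/Z were 6 of 10 genes in WT at PD 24, beside 8.29% of all genes, 5 in WT at PD 52, beside 10.3% (3 when scaled by total reads), 7 in cKO at PD 24, beside 11.8%, and 7 in cKO at PD 52, beside 15.3%. By the plain FPKM ratio, the 7 genes were within a narrow band in WT at PD 24, 2.01 to 2.28 times the P level, while Odf2 was at 1.03 times, Ropn1l at 0.878 and Odf4 at 0.701. In cKO at PD 52 the ratios were wider, 5.13 for Akap4, 4.46 for Odf1 and 1.17 for Odf4. Odf4 and Ropn1l were lower in L/Z than in P in 2 of the 4 comparisons each, namely Odf4 at PD 24 in both genotypes and Ropn1l in WT at both ages, and the direction for Ropn1l turned at PD 24 when libraries were scaled by total reads and at PD 52 after a further median-of-ratios scaling. Odf4 in WT at PD 52, at 100.9% of the P level, turned with the scaling by total reads as well.

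Genes of other tail structures were described from lists drawn up from general knowledge, with earlier results of these data known. Of 8 other outer dense fibre and linked genes that could be tested, 0 were called in limma for the genotype effect, with 1 lower at an unadjusted p under 0.05, and 0 for the age term, with 3 higher at an unadjusted p. In P at PD 24, 4 of the 8 were at least 2-fold lower in cKO, with a median of -0.72, and in L/Z at PD 52 none was, with a median of 0.19. Oaz3, an antizyme of polyamine metabolism in spermatids, was the highest and had the largest mean difference, -0.91. It was at 18.4, 4.68, 40.1 and 13.7 FPKM in P WT, P cKO, L/Z WT and L/Z cKO at PD 24 and at 74.7, 42.8, 160.4 and 211 at PD 52. Tsga10, a tail protein, differed by 0.12 on average.

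Of 14 other genes of the fibrous sheath or linked to it, 0 were called for the genotype effect (1 lower at an unadjusted p) and 0 for the age term (4 higher). In P at PD 24, 3 of 14 were at least 2-fold lower, with a median of -0.41, and in L/Z at PD 24 also 3, with a median of -0.14. Gapdhs, the glycolytic enzyme bound to the sheath, had the largest mean difference, -0.9999, and went from 86.7 FPKM in WT to 17.4 in cKO in P at PD 24 and from 602 to 738 in L/Z at PD 52. Ldhc, the lactate dehydrogenase of germ cells, was the highest, at 1494 to 2910.1 FPKM, and differed by at most 0.44 in any pair. Fsip2, whose protein interacts with the sheath, had a mean difference of 0.11 over pairs that ran from -0.46 in L/Z at PD 24 to 1.15 in P at PD 52, where it was at 10.9 FPKM in WT and 25.5 in cKO. Of 8 genes of the mitochondrial sheath and the annulus, the ring between midpiece and principal piece, 0 were called for either term, with 1 lower and 2 higher at an unadjusted p in the genotype and the age term. Smcp was the highest and had the largest mean difference, -0.92, with 168 and 36.6 FPKM in P at PD 24 and 1387 and 1660.3 in L/Z at PD 52. Slc26a8, an anion transporter of the annulus, differed by 0.09.

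The median of the spermatid genes lay on the same side of 0 as that of the tail genes in each pair, and further from it. Single genes differed, and Spaca1, Tssk3, Spaca7, Acrv1, Lyzl4 and Izumo1 fell less than the tail gene median of -1.62 in P at PD 24. Of 14 spermatid genes outside the tail, 13 were at least 2-fold lower in P cKO at PD 24, with a median of -2.27, 8 in L/Z at PD 24, with -1.39, and 5 in P at PD 52, with -0.93, and in L/Z at PD 52 3 were at least 2-fold higher, with a median of 0.48. In limma 0 of 14 were called, with 7 lower for the genotype effect and 11 higher for the age term at an unadjusted p. Prm2, a protamine of condensed sperm chromatin, had the largest mean difference, -2.88, with 152 FPKM in WT and 3.07 in cKO in P at PD 24, 298 and 7.06 in L/Z, 1134 and 375 in P at PD 52, and 2801 and 4017 in L/Z. Tnp2, a transition protein, reached the highest level, 6254 in L/Z cKO at PD 52, and Spaca7, an acrosomal protein, had the smallest mean difference, -0.17. A list of 8 markers of round and elongating spermatids, all of them also among these 14 genes, had none at 0 in any library. Their summed FPKM ranged from 1097 to 9246 in WT and from 71.7 to 17969.9 in cKO. In cKO it was 6.54% of WT in P at PD 24, 11.1% in L/Z at PD 24, 42.2% in P at PD 52 and 194% in L/Z at PD 52, and from P to L/Z it was 1.97 to 10.01 times as high. The share of the tail gene differences that goes with these markers was not tested.

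Markers of the other cells of the testis were summed in the same way. Summed over 8 markers, pachytene genes ranged from 1414 to 2517 FPKM in WT and from 1351 to 2422 in cKO, and over 10 markers leptotene and zygotene genes from 228 to 346 and from 178 to 312. The pachytene sum in cKO was 75.4% of WT in P and 95.5% in L/Z at PD 24, and 92.2% in P and 111% in L/Z at PD 52. The median log2 difference of these 8 markers was -0.33 in P and -0.006 in L/Z at PD 24. At PD 52 it was 0.002 in P and 0.17 in L/Z. Of 7 markers of Leydig cells, 6 were at least 2-fold higher in cKO in each of the 4 pairs, and their sum was 19.7 to 255 FPKM in WT and 99.0 to 641 in cKO. In limma 4 of these 7 were called higher for the genotype effect, where 0.132% of all genes were, and 0 for the age term. No gene of the other marker lists was called for either term. Of 6 macrophage markers, 2 to 6 were at least 2-fold higher in cKO, with sums of 4.56 to 46.0 in WT and 17.4 to 226 in cKO. At an unadjusted p under 0.05 in limma, 7 of the Leydig and 5 of the macrophage markers were higher, where 1467 of 21175 genes differed in either direction. Sums of 8 Sertoli cell markers ranged from 16.2 to 438 in WT and from 47.4 to 524 in cKO, those of 8 spermatogonial markers from 89.4 to 139 and from 45.6 to 186, and those of 4 peritubular myoid markers from 9.44 to 113 and from 4.81 to 154. As a percentage of WT in P and L/Z, the spermatogonial sum in cKO was 115% and 134% at PD 24 and 45.6% and 46.5% at PD 52. The Sertoli sum was 123% and 81.5%, then 52.2% and 294%. The myoid sum was 111% and 137%, then 51.0% and 82.0%. No marker was at 0 in any library, and the part of these cells in the results was not tested.

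**Figure D5:**
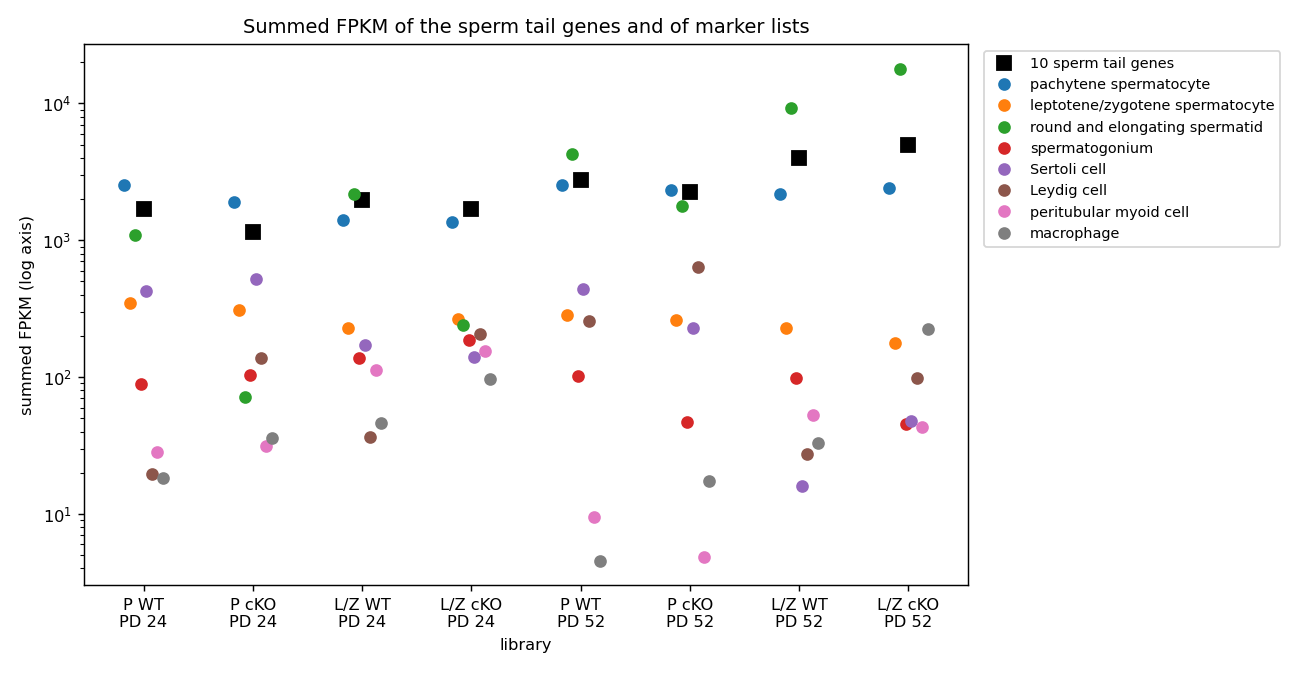
Summed FPKM on a log axis of the 10 sperm tail genes (black squares) and of 8 marker lists (coloured points) in each library. The spermatid markers (green) go from 1097 in P WT to 71.7 in P cKO at PD 24 and reach 17969.9 in L/Z cKO at PD 52, over a wider range than the tail genes.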

How the data were processed

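The authors sequenced paired-end RNA libraries (NEBNext Ultra, Illumina HiSeq) and deposited FPKM for 54532 genes in 8 libraries. Their processing notes name CASAVA 1.4, Bowtie 0.12.2, mm8 and mm9, but the table's coordinates are those of GRCm38, equal to GENCODE mouse release 21 for 9 of the 10 genes and differing for Cabyr. The study's methods say that the FPKM were generated in Novomagic (Novogene). The FPKM of a library, times the length of each gene, were whole multiples (within 0.01) of one step for 100% of genes, which gave 14340665 to 20379950 reads on genes. The authors' values were already scaled by median-of-ratios.

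Differences were taken on log2(FPKM + 1), over genes above 1 FPKM in at least 1 library compared, and called at 2-fold. limma 3.58.1 (R 4.3.3, eBayes with trend, two-sided, Benjamini-Hochberg) fitted genotype with the pair as a block, and a genotype by age term. The 4 pairs stood as replicates, so p-values measure the spread between pairs. Both fits were also run on simulated data, the outcome of which is not given here. The genes named were the 10 members, Mfn2, the 5 genes most like Odf2, Akap4 and Odf1, and of each list the highest gene and the largest mean rise and fall. Members and lists were chosen with earlier results of these data known. Alternatives were a pseudocount of 0.1, no filter, 2 other scalings, protein-coding genes only, each pair left out, and no block, of which scaling by total reads was chosen after seeing the data.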

Additional observations from a re-analysis of the deposited data

Results flagged for a closer look

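In Odf2 both MFN2 cKO libraries at PD 24 were below their MFN2 WT libraries (-0.46 in P and -0.36 in L/Z on the log2(FPKM + 1) scale) and both at PD 52 were above them (0.01 and 0.28), a difference between the ages of 0.55, given with no test because the levels of Odf2 at PD 52 entered the choice of the genes. The PD 52 difference in P lay within counting error of 0. In Ropn1l both P pairs were lower in cKO (-0.32 at PD 24 and -0.33 at PD 52) and both L/Z pairs higher (0.28 and 0.24), a difference between the stages of 0.58 that was not tested. Both patterns of direction held under the other scalings.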

How the results depend on the processing

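The counts of genes past 2-fold between genotypes stayed within 1.5 times under a pseudocount of 0.1, no filter, both other scalings and protein-coding genes only. Scaling by total reads gave 3 genes at least 2-fold higher at PD 52 in L/Z WT and 3 higher in L/Z than in P in WT at PD 52, in place of 5 each. In limma, leaving Odf2 aside, 0 of the genes were called for the genotype effect in every fit. These fits include those with no replicate block (stage and age additive, or genotype alone) and with each pair left out (0 to 0 called). For the age term 1 gene, Akap4, was called among protein-coding genes only, where 174 of 14059 genes were called higher and 30 lower. None of these genes was called in the other fits, including with each pair left out. At an unadjusted p under 0.05 the number of genes was 0 to 3 for the genotype effect and 5 or 6 for the age term when all pairs were kept, beside 0.534% to 2.95% of all genes lower and 4.13% to 8.77% higher. Estimates near 0 changed sign. The genotype effect of Ropn1l was 0.0011 after a further median-of-ratios scaling and ranged from -0.14 to 0.064 with each pair left out. Its age term was 0.053 after that scaling and ranged from -0.32 to 0.28 with each pair left out. The age term of Odf4 was -0.013 after scaling by total reads and ranged from -0.092 to 0.32 with each pair left out. The cause of these changes was not tested. The labels give no replicate numbers, and the pairs were formed by stage and age. Depth does not limit these genes, which had 259 reads or more, but each group had 1 library, so no single pair can be checked against replicates, and the limma fits rest on 4 pairs that differ in stage and age.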
